A study of Homo sapiens with 12 samples.

Results

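The lysosome is the acidic organelle in which cells break down proteins, glycans and lipids, and the vacuolar ATPase (V-ATPase) is the proton pump that acidifies it. The pump has a membrane sector, V0, that carries the protons and a peripheral sector, V1, that hydrolyses ATP. Many of the genes share a promoter element, the CLEAR motif, which is read by the transcription factors TFEB, TFE3 and MITF when nutrients are scarce or lysosomes are stressed. CD68, a heavily glycosylated lysosomal membrane protein, is best known as a macrophage marker but is also made by other cells. The genes described here were the 26 V-ATPase symbols of the deposited count files, 11 of V0 and 15 of V1, and 26 listed lysosomal genes, together 52 of 26364 genes.

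The study asks what the transcription factor PRDM1 does in RKO, a human colon carcinoma cell line in wide use. PRDM1, also called BLIMP1, is known as a repressor of B cell genes, and its beta form lacks the amino-terminal part of the alpha form. Sequencing of polyadenylated RNA gave 12 libraries, with 2 in every one of the 6 groups. RKO cells overexpressed the alpha form of PRDM1 (alpha), its beta form (beta) or GFP as the control (GFP). In the other groups PRDM1 was removed by CRISPR/Cas9 in the derivatives KO2 and KO5, and WT was RKO with PRDM1 unedited. All groups are the same cell line in the same medium. The labels do not say how the overexpressing cells were selected or whether a derivative is 1 clone. They also leave unsaid if both libraries of 1 group had cultures of their own, so the spread behind the p-values may be technical alone.

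Gene counts per library ranged from 19058967 to 55961821. PRDM1 had 11475 and 9681 counts in alpha and 22395 and 28423 in beta, against 2 and 6 in GFP. It had 0 and 1 counts in KO2 and 1 and 1 in KO5, against 4 and 4 in WT. These counts are near the floor in WT too, so they do not separate the knockouts from WT. Fold changes ran with transcript GC content in some comparisons. Spearman's correlation across 12122 genes was -0.67 for GFP against WT and -0.52 for KO5 against WT, but 0.19 for alpha against GFP, 0.15 for beta against GFP and -0.07 for KO2 against WT. The median GC content was 52.9% over the 43 tested lysosome and V-ATPase genes and 49.2% over all genes tested. Each comparison was therefore also fitted with offsets that remove the GC trend of each library. The epithelial keratin genes KRT8 and KRT18 and the intestinal transcription factor gene CDX2 were expressed, while EPCAM and CDX1 had 0 counts in every library. The epithelial genes KRT19, CDH1 and VIL1 had at most 1, 1 and 2 counts in any library.

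The CLEAR motif was looked for in RefSeq promoters (GRCh38.p14, 250 bases before to 50 after the transcript start), on both strands, for the 39 genes that matched the table by symbol. Its core TCACGTGA with G before and C after, the full palindrome, stood in 3 of the 39 (7.69%, against 0.421% of all 27305 genes in the table), the core alone in 7 (17.9%, against 1.18%) and the shorter CACGTG in 11 (28.2%, against 8.77%). Each motif holds the next one, so the counts overlap. The PRDM1 motif (GAAAG, any base, then GAAA) stood in 0 of the 39, against 1.32% of all genes. Per window of the same length, of 35116, the shares were 0.353%, 0.980%, 7.26% and 1.06% in the same order. The stretches below hold the core TCACGTGA, in capitals, with the bases beside it, in genes whose levels are described further on.
ATP6V0D1: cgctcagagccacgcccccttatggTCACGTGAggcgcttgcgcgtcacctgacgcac
ATP6V1G1: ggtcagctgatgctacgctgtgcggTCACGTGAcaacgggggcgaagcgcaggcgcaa
CTSA: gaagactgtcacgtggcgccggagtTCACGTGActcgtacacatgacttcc
GAA: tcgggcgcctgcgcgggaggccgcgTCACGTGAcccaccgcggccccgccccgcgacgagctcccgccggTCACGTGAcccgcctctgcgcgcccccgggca
LAMP1: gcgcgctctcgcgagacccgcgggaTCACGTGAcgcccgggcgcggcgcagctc
MCOLN1: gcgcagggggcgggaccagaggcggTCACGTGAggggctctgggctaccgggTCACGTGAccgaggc

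These lie at chr16:67481185-67481242 on the minus strand for ATP6V0D1 and, on the plus strand, at chr9:114587685-114587742 for ATP6V1G1, chr20:45891284-45891334 for CTSA, chr17:80101479-80101580 for GAA, chr13:113297185-113297238 for LAMP1 and chr19:7522557-7522623 for MCOLN1. Those of GAA and MCOLN1 hold the core more than once. The seventh gene with the core was CLN3. The 250 bases before the start are shown for NEU1, the sialidase gene with the largest rise in beta, whose single CACGTG is in capitals, and for CD68, whose window held none of the 4 motifs. They lie at chr6:31862822-31863071 on the minus strand and chr17:7579388-7579637 on the plus strand. A match is a description of these letters and no evidence of binding.
NEU1: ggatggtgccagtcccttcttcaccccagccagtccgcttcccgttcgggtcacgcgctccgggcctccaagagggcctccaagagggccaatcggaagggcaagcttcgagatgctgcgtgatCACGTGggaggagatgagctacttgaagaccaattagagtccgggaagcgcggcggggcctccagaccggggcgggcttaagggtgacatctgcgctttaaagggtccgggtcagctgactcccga
CD68: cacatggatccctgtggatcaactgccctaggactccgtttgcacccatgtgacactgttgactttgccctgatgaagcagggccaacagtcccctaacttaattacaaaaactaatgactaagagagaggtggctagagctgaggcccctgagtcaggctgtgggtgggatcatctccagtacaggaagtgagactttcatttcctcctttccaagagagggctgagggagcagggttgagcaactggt

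RKO cells expressed all 26 listed lysosomal genes and 1 main isoform of most pump subunits. Of the 52 genes, 43 had enough counts to be tested and 42 of these exceeded 1 CPM in every library (CPM is the TMM-scaled count relative to the depth of the library). The exception was ATP6V1G2, a G subunit gene known mainly from the nervous system, at 0.078 to 0.472 CPM. The 9 genes not tested were 4 with 0 counts in all 12 libraries, namely ATP6V1B1, ATP6V1G3, the read-through ATP6V1G2-DDX39B and the antisense ATP6V0E2-AS1, and 5 with few. With a floor of 3 counts, a gene at 0 could still stand at 0.157 CPM where sequencing was shallowest. ATP6V0D2 had 1 count in all libraries together, ATP6V0CP3 had 2, ATP6V0E2 had 3, ATP6V1C2 had 50 and ATP6V0A4 had 58. ATP6V0CP3 is a pseudogene of ATP6V0C and ATP6V1B1-AS1 is antisense to ATP6V1B1. How reads shared by such copies or by overlapping strands were counted is not given in the sources used here.

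The mutually exclusive subunit isoforms were compared per kilobase of exon. Among the a subunits of V0, ATP6V0A1 stood at 17.1 ± 0.104 CPM per kb in WT (SD, n = 2), TCIRG1 at 14.9 ± 0.777, ATP6V0A2 at 1.77 ± 0.117 and the kidney isoform gene ATP6V0A4 at 0.033 ± 0.0058. TCIRG1 encodes an a subunit, though its symbol falls outside the V-ATPase naming pattern. For the e subunit ATP6V0E1 stood at 77.3 ± 2.36 CPM per kb in WT and for the d subunit ATP6V0D1 at 44.0 ± 1.34. Their alternatives ATP6V0E2 and ATP6V0D2 had almost no counts, as above. In V1, ATP6V1E1 stood at 77.3 ± 3.96 CPM per kb in WT against 1.44 ± 0.0839 for ATP6V1E2, and ATP6V1G1 at 181 ± 2.61 against 0.186 ± 0.0751 for ATP6V1G2. ATP6V1C1 stood at 42.7 ± 1.04 and ATP6V1C2 at 0.041 ± 0.024 CPM per kb. The sole B subunit with counts was ATP6V1B2, at 22.6 ± 0.653. Within each subunit, the leading isoform gene was the same in all 6 groups. ATP6V0A1 exceeded TCIRG1 in each group, by the least in WT.

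**Figure D1:**
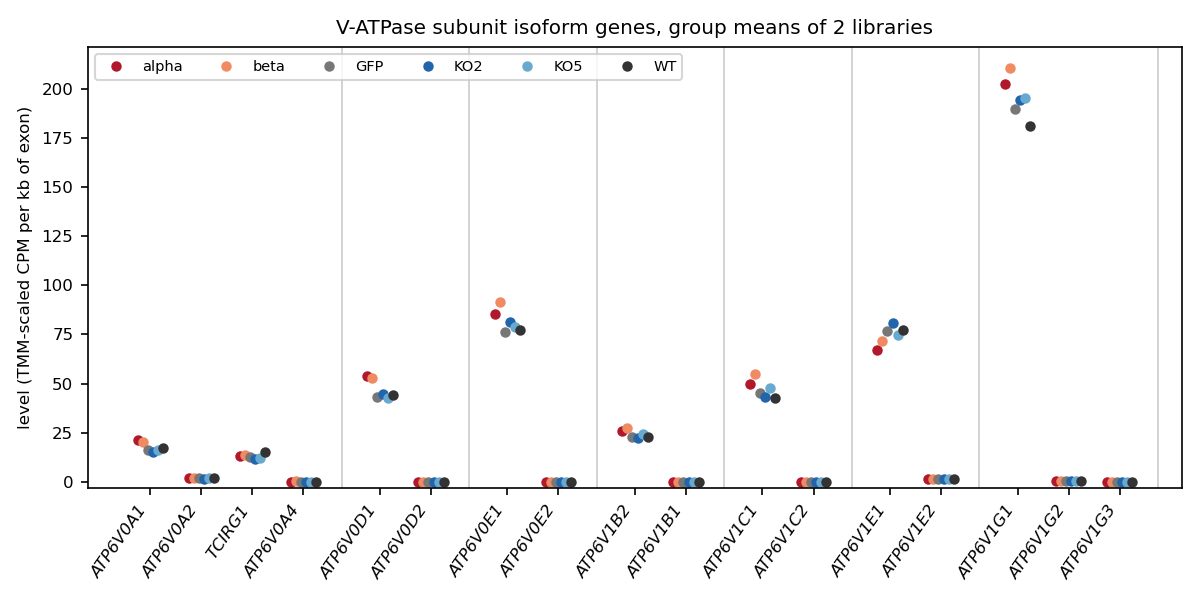
Levels of V-ATPase subunit isoform genes, in TMM-scaled CPM per kb of exon (vertical axis, linear), with isoforms of a subunit side by side; each point is the mean of the 2 libraries of a group, in the order alpha, beta, GFP, KO2, KO5, WT. Except for the a subunits, where ATP6V0A1 and TCIRG1 stand close together, 1 gene per subunit is high in every group and the others lie near 0.

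Overexpression of either form of PRDM1 raised most lysosome and V-ATPase genes, by small amounts. Against GFP, 29 of the 43 tested genes rose in alpha and 2 fell, while 12 did not pass (edgeR quasi-likelihood F-test, adjusted p under 0.05), where 21.2% of all 12858 genes tested rose and 16.3% fell (37.5% in all). In beta 30 rose and 2 fell, while 11 did not pass, where 22.9% of all genes rose and 18.0% fell (40.9% in all). The median log2 fold change was 0.16 in alpha and 0.26 in beta, where the median over all genes tested was 0.01 in each. These genes are more abundant than most, with a median level of 85.3 CPM against 32.2 CPM over all genes tested. Among the 9285 genes of at least 10 CPM the share that rose was 24.9% in alpha and 27.4% in beta, and among the 39 lysosome and V-ATPase genes of that level it was 74.4% and 76.9%. Both comparisons use the same 2 GFP libraries. When the test asked for a change beyond 1.5-fold, 2 genes passed in alpha (NPC2 and NEU1) and 1 in beta (NEU1). The share of all genes past that test is not given here, so these counts have no background. With GC offsets 30 of the 31 calls in alpha and 31 of the 32 in beta were kept, and the call lost in each was GAA. In bulk RNA, more cells with a transcript and more transcript per cell cannot be told apart.

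**Figure D2:**
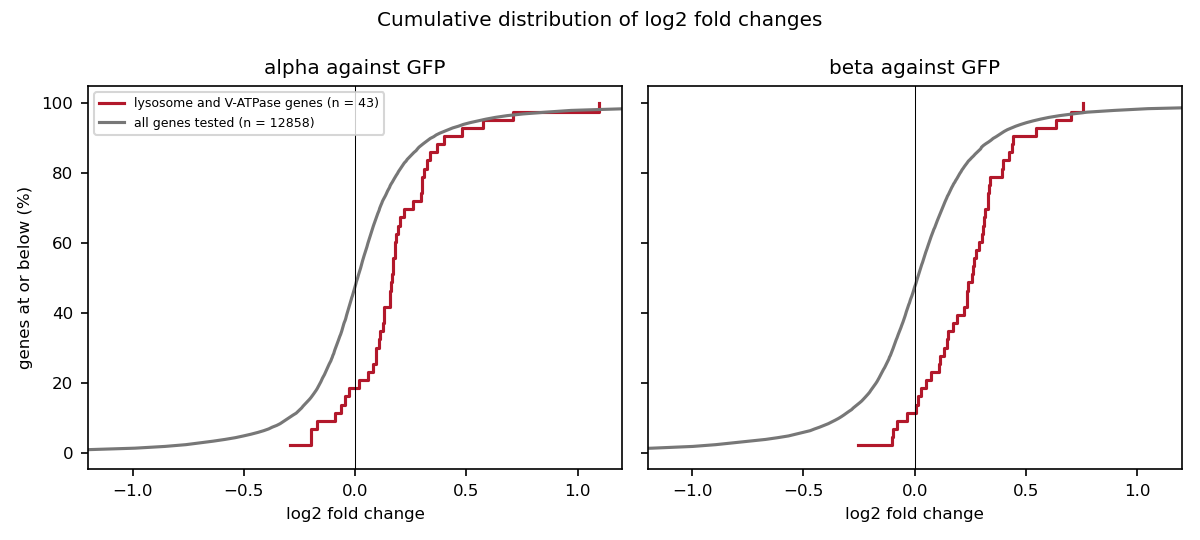
Cumulative share of genes (vertical axis, %) at or below each log2 fold change (horizontal axis) for alpha against GFP and beta against GFP; the red line holds the 43 tested lysosome and V-ATPase genes and the grey line all 12858 genes tested. The red line lies to the right of the grey over most of its range, with medians of 0.16 and 0.26 against 0.01.

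Among the membrane proteins, CD68 led in alpha. It had 26.8 and 29.6 CPM in alpha and 24.3 and 26.6 CPM in beta, against 19.7 and 18.2 CPM in GFP. Every library of either form exceeded both GFP libraries, with log2 fold changes of 0.57 ± 0.07 (SE; adjusted p = 1.1e-08) in alpha and 0.43 ± 0.08 (adjusted p = 5.61e-06) in beta. Macrophage transcripts were near 0 beside it. Of 12 monocyte and macrophage markers 0 could be tested, CSF1R, AIF1, TYROBP and LYZ had 0 counts in all 12 libraries, and the summed level of the list was 0.212 to 0.296 CPM in alpha, 0.105 to 0.371 in beta and 0.253 to 0.312 in GFP. The 7 fibroblast markers, of which 3 could be tested, summed to 15.4 to 16.1 CPM in alpha and 12.3 to 13.8 in beta, against 9.36 to 9.77 in GFP. Of these, COL1A1 rose in alpha (0.74, adjusted p = 3.69e-06), PDGFRB fell there (-0.45, adjusted p = 0.0417), and POSTN, at 0 to 3.31 CPM over the 12 libraries, passed as higher in alpha and in beta. Of the 8 epithelial markers 3 could be tested, namely KRT8, KRT18 and CDX2. The list summed to 815 to 823 CPM in alpha and 927 to 928 CPM in beta, against 892 to 924 CPM in GFP. KRT8 fell in alpha (-0.25, adjusted p = 2.79e-09). The part of these markers in the results was not tested.

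MCOLN1, the calcium channel of the lysosomal membrane, had 21.3 and 23.9 CPM in alpha and 26.9 and 26.4 CPM in beta, against 18.8 and 17.7 CPM in GFP. It rose by 0.30 ± 0.07 in alpha (adjusted p = 7.52e-04) and by 0.54 ± 0.07 in beta (adjusted p = 1.15e-08). The abundant structural glycoprotein genes LAMP1 and LAMP2 rose by 0.30 ± 0.04 and 0.12 ± 0.04 in alpha and by 0.33 ± 0.04 and 0.19 ± 0.04 in beta. SCARB2, the receptor that carries glucocerebrosidase to lysosomes, rose by 0.11 ± 0.04 in beta (adjusted p = 0.00911) and stood at 0.02 ± 0.04 in alpha. CLN3, the membrane protein gene mutated in juvenile Batten disease, ranged from 22.4 to 25.8 CPM over all libraries and did not pass in either form. Over the 12 libraries LAMP1 ranged over 222 to 292 CPM, LAMP2 over 119 to 150 CPM and SCARB2 over 116 to 138 CPM.

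Of the 7 peptidase genes, 5 rose in alpha and the same number in beta, where 21.2% and 22.9% of all genes rose. TPP1, which removes tripeptides from protein ends, had 158 and 158 CPM in alpha and 179 and 173 CPM in beta, against 115 and 112 CPM in GFP, a log2 fold change of 0.48 ± 0.04 (adjusted p = 1.15e-15) in alpha and 0.63 ± 0.04 (adjusted p = 3.51e-20) in beta. CTSA, the protective protein that keeps the sialidase NEU1 stable, had 123 and 119 CPM in alpha and 139 and 136 CPM in beta, against 98.2 and 104 CPM in GFP. It rose by 0.26 ± 0.04 in alpha and 0.44 ± 0.04 in beta. The aspartic protease gene CTSD rose by 0.34 ± 0.04 and 0.39 ± 0.04, the dipeptidyl peptidase gene CTSC by 0.16 ± 0.04 and 0.24 ± 0.04, and the aminopeptidase gene CTSH by 0.18 ± 0.07 and 0.31 ± 0.07, in alpha and in beta in that order. CTSB and CTSZ, both cysteine cathepsins, did not pass, at -0.06 ± 0.05 and 0.06 ± 0.04 in alpha and 0.01 ± 0.05 and 0.07 ± 0.04 in beta. Over the 12 libraries CTSB ranged over 71.1 to 80.1 CPM, CTSC over 150 to 198, CTSD over 159 to 226, CTSH over 17.8 to 25.6 and CTSZ over 80.1 to 102 CPM.

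Among the glycosidases NEU1 moved most. It had 98.7 and 98.9 CPM in alpha and 99.7 and 104 CPM in beta, against 61.0 and 60.0 CPM in GFP, a log2 fold change of 0.71 ± 0.05 (adjusted p = 5.5e-19) in alpha and 0.75 ± 0.05 (adjusted p = 5.28e-20) in beta. HEXA, the alpha subunit of hexosaminidase A, rose by 0.19 ± 0.04 in alpha and 0.31 ± 0.04 in beta. GAA, which degrades glycogen, rose by 0.20 ± 0.05 and 0.17 ± 0.05, the calls that GC offsets removed. GLA, which cleaves terminal galactose, passed in beta (0.13 ± 0.05, adjusted p = 0.0265) and not in alpha (0.09 ± 0.05, adjusted p = 0.13). GUSB and MAN2B1, which cleave glucuronic acid and mannose, passed in neither form, with log2 fold changes between -0.04 and 0.11. Over the 12 libraries HEXA ranged over 75.5 to 96.4 CPM, GLA over 53.0 to 70.8, GAA over 38.9 to 62.7, GUSB over 54.5 to 67.8 and MAN2B1 over 46.3 to 61.3 CPM.

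The lipid-handling genes did not move as one. NPC2, which hands cholesterol out of the lysosome, had 1163 and 1182 CPM in alpha against 540 and 557 CPM in GFP, a log2 fold change of 1.10 ± 0.03 (adjusted p = 9.33e-33) and the only change beyond 2-fold among the 43 genes against GFP. In beta it had 553 and 564 CPM, at 0.03 ± 0.03 (adjusted p = 0.533). PSAP, the precursor of the saposin activators, rose by 0.17 ± 0.03 in alpha and 0.30 ± 0.03 in beta, and the acid ceramidase gene ASAH1 by 0.17 ± 0.06 and 0.33 ± 0.06. The acid lipase gene LIPA went the other way, with 53.3 and 52.0 CPM in alpha against 59.6 and 61.1 CPM in GFP (-0.20 ± 0.05, adjusted p = 0.00106). In beta it had 58.5 and 54.3 CPM and did not pass (-0.10 ± 0.05, adjusted p = 0.0844). Over the 12 libraries ASAH1 ranged over 30.9 to 46.9 CPM and PSAP over 357 to 513 CPM.

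Of the regulators, GRN and SQSTM1 rose and TFEB did not pass. GRN, the progranulin gene, had 183 and 183 CPM in alpha and 181 and 192 CPM in beta, against 140 and 144 CPM in GFP, and rose by 0.37 ± 0.04 and 0.40 ± 0.04. SQSTM1, the autophagy receptor p62, had 348 and 344 CPM in alpha and 370 and 379 CPM in beta, against 279 and 279 CPM in GFP, and rose by 0.31 ± 0.03 and 0.42 ± 0.03. The TFEB transcript was scarce, with 4.20 and 3.65 CPM in alpha and 4.30 and 3.83 CPM in beta, against 3.74 and 3.58 CPM in GFP. Its 95% interval was -0.21 to 0.42 on the log2 scale in alpha and -0.17 to 0.46 in beta, so changes of the size seen in most of these genes were not detectable.

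Pump genes rose in both sectors. In V0, 5 of the 6 tested genes rose in alpha and in beta, where 21.2% and 22.9% of all genes rose. Among the a subunit genes ATP6V0A1 was highest per kilobase of exon, with TCIRG1 next. ATP6V0A1 had 89.5 and 89.7 CPM in alpha and 86.6 and 85.0 CPM in beta, against 69.1 and 66.7 CPM in GFP. It rose by 0.40 ± 0.05 in alpha (adjusted p = 2.93e-11) and by 0.34 ± 0.05 in beta (adjusted p = 3.94e-09). ATP6V0C, which encodes the proton-carrying ring subunit, rose by 0.30 ± 0.04 and 0.31 ± 0.04 (0.18 and 0.18 with GC offsets), ATP6V0D1 by 0.32 ± 0.04 and 0.29 ± 0.04, ATP6V0B by 0.16 ± 0.04 and 0.26 ± 0.04, and ATP6V0E1 by 0.16 ± 0.04 and 0.26 ± 0.04, in alpha and in beta in that order. ATP6V0A2, an a subunit known from Golgi and endosomes, fell in beta, with 12.4 and 11.6 CPM against 14.0 and 14.6 CPM in GFP (-0.26 ± 0.09, adjusted p = 0.0166). This call was lost without beta replicate 2 (adjusted p = 0.184), without GFP replicate 2 (0.0873) and with the DESeq2 Wald test (0.0655). In alpha ATP6V0A2 stood at -0.17 ± 0.09. Over the 12 libraries ATP6V0B ranged over 110 to 138 CPM, ATP6V0C over 71.1 to 98.0, ATP6V0D1 over 78.3 to 101 and ATP6V0E1 over 123 to 149 CPM.

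In V1, 7 of the 11 tested genes, which include the antisense ATP6V1B1-AS1, rose in alpha and 7 in beta. Over all genes the shares were 21.2% and 22.9%. The rises ran from 0.09 ± 0.04 for ATP6V1G1 to 0.22 ± 0.04 for ATP6V1D in alpha, and from 0.15 ± 0.04 to 0.33 ± 0.04 for the same genes in beta. In between lay the catalytic subunit gene ATP6V1A (0.16 and 0.23), the B subunit gene ATP6V1B2 (0.19 and 0.27), the regulatory H subunit gene ATP6V1H (0.18 and 0.23), ATP6V1C1, whose product links the sectors (0.13 and 0.27), and ATP6V1F (0.13 and 0.22), each as log2 fold change in alpha and in beta. ATP6V1E1, a stalk subunit, went the other way. It had 94.7 and 92.7 CPM in alpha and 103 and 99.0 CPM in beta, against 107 and 109 CPM in GFP. The log2 fold change was -0.20 ± 0.04 in alpha (adjusted p = 6.05e-05) and -0.10 ± 0.04 in beta (adjusted p = 0.0433), where the call was lost without any of the 4 libraries in turn (adjusted p up to 0.316) and with DESeq2 (0.0737). ATP6V1E2 (3.13 to 4.35 CPM over the 12 libraries), ATP6V1B1-AS1 (4.24 to 6.40 CPM) and ATP6V1G2 did not pass in either form. ATP6V1A ranged over 115 to 152 CPM, ATP6V1B2 over 63.3 to 78.9, ATP6V1C1 over 237 to 313, ATP6V1D over 70.9 to 102, ATP6V1F over 160 to 195, ATP6V1G1 over 194 to 228 and ATP6V1H over 102 to 128 CPM.

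**Figure D3:**
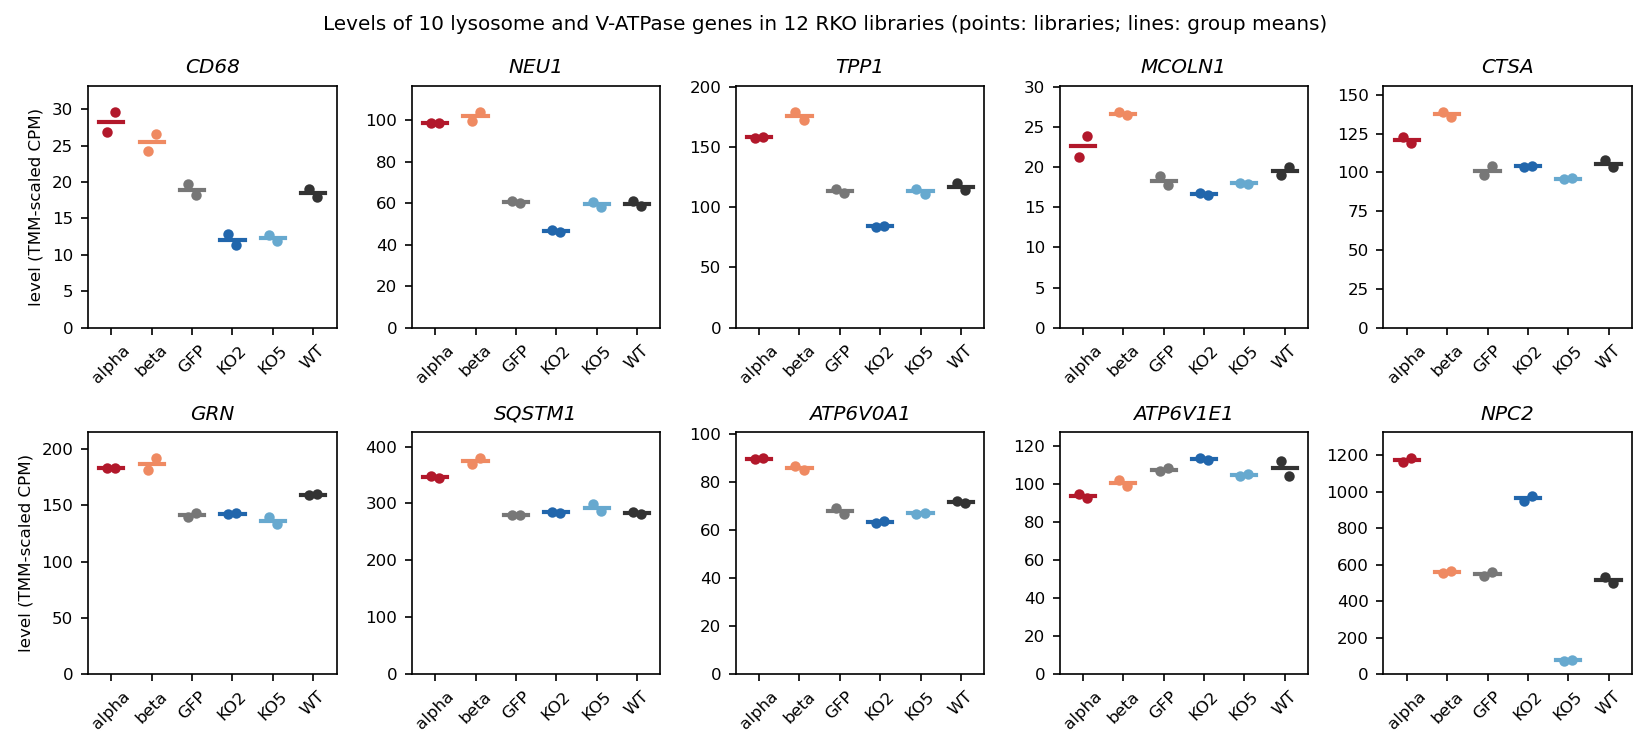
Levels of 10 lysosome and V-ATPase genes (vertical axis, TMM-scaled CPM from 0) in the 12 libraries, by group on the horizontal axis; points are libraries and lines are means of 2. CD68, NEU1, TPP1, MCOLN1, CTSA, GRN, SQSTM1 and ATP6V0A1 are higher in every alpha and beta library than in GFP, ATP6V1E1 is lower, and NPC2 is high in alpha and KO2 and low in KO5.

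The forms were compared directly, which tests the difference of their effects. Between alpha and beta 1 of the 43 genes was higher in alpha, 6 were lower and 36 did not pass, where 3.45% of all genes were higher and 2.79% lower (6.24% in all). NPC2 was 1.07 ± 0.03 higher in alpha on the log2 scale (adjusted p = 1.95e-31). MCOLN1 was lower in alpha (-0.24 ± 0.07, adjusted p = 0.0247), as were CTSA (-0.18 ± 0.04, adjusted p = 8.96e-04), TPP1 (-0.15 ± 0.04, adjusted p = 0.00276), ATP6V1C1 (-0.14 ± 0.04), PSAP (-0.13 ± 0.03) and SQSTM1 (-0.11 ± 0.03, adjusted p = 0.0123). PRDM1 counts differed too, at 11475 and 9681 in alpha and 22395 and 28423 in beta, and the part of the amount of PRDM1 cannot be told apart from that of the form. CD68 did not pass, with a 95% interval of -0.00 to 0.28. With GC offsets all 7 calls were kept and 3 were gained. That made 1 higher and 9 lower (2.33% and 20.9%, against 3.83% and 2.84% of all genes). Leaving out beta replicate 2 left 4 calls. The MCOLN1 call was lost without alpha replicate 1 (adjusted p = 0.382), without either beta library (0.124 and 0.123) and with DESeq2 (0.166), and that of SQSTM1 without 3 of the 4 libraries (alpha replicates 1 and 2 and beta replicate 2, adjusted p = 0.0608 to 0.204). TPP1 lost its call without beta replicate 1 (0.0856) and PSAP without alpha replicate 2 (0.0936) or beta replicate 2 (0.066).

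The knockout derivatives shifted part of these genes, and KO2 and KO5 differed widely. In KO2, 4 of the 43 genes rose against WT, 16 fell and 23 did not pass, where 15.1% of all genes rose and 14.9% fell (30.0% in all). Falls were frequent among the listed lysosomal genes, 13 of 26 with 2 rises, while among the 17 tested V-ATPase symbols 3 fell and 2 rose. With GC offsets 19 of the 20 calls in KO2 were kept, all but that of ATP6V0C, and 1 was gained. In KO5, 14 rose, 12 fell and 17 did not pass, where 25.2% of all genes rose and 25.9% fell (51.2% in all), so neither share was far from that of all genes. With GC offsets 12 of these 26 calls were kept, 14 were lost and 3 were gained (8 rises and 7 falls, or 18.6% and 16.3%, against 20.4% and 20.2% of all genes). The median log2 fold change over the 43 genes was -0.02 in KO2 and -0.01 in KO5. Both comparisons use the same 2 WT libraries.

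CD68 was the listed lysosomal gene with the largest fall in KO2. It had 12.9 and 11.3 CPM in KO2 and 12.7 and 11.9 CPM in KO5, against 19.0 and 18.0 CPM in WT. All knockout libraries lay below both WT libraries, with log2 fold changes of -0.60 ± 0.07 in KO2 (adjusted p = 2.82e-09) and -0.58 ± 0.08 in KO5 (adjusted p = 1.2e-08), and both calls were kept with GC offsets. The monocyte and macrophage markers summed to 0.229 to 0.322 CPM in KO2 and 0.371 to 0.422 in KO5, against 0.229 to 0.245 in WT. The fibroblast markers summed to 8.52 to 9.10 CPM in KO2 and 13.0 to 13.2 in KO5, against 10.2 to 12.1 in WT, and the epithelial ones to 1019 to 1047 CPM in KO2 and 1133 to 1203 in KO5, against 970 to 986 in WT. The part of either list was not tested. MCOLN1 fell in KO2 (-0.23 ± 0.06, adjusted p = 0.00354) and stood at -0.12 ± 0.07 in KO5 (adjusted p = 0.109). In KO2 the call was lost without WT replicate 2 (adjusted p = 0.0914) and narrowly with DESeq2 (0.0509). LAMP1, LAMP2 and SCARB2 rose in KO5 by 0.18 ± 0.03, 0.17 ± 0.04 and 0.08 ± 0.04, of which LAMP1 was kept with GC offsets, and none of these passed in KO2. CLN3 fell in KO5 (-0.16 ± 0.06), a call lost with GC offsets, with DESeq2 (adjusted p = 0.114) and without WT replicate 2 (0.0837) or KO5 replicate 2 (0.164).

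TPP1 and NEU1 fell in KO2 but did not pass in KO5. TPP1 had 83.8 and 84.4 CPM in KO2 and 115 and 111 CPM in KO5, against 120 and 114 CPM in WT (-0.48 ± 0.04, adjusted p = 6.52e-16, in KO2, and -0.05 ± 0.04 in KO5). NEU1 had 47.2 and 45.9 CPM in KO2 and 60.8 and 58.3 CPM in KO5, against 61.1 and 58.4 CPM in WT (-0.36 ± 0.04, adjusted p = 1.71e-09, in KO2). CTSD fell, at -0.20 ± 0.03 in KO2 and -0.30 ± 0.03 in KO5 (adjusted p = 1.28e-09), where GC offsets left -0.07 (adjusted p = 0.0318). CTSH fell in KO2 (-0.20 ± 0.06) and KO5 (-0.21 ± 0.07). Its call was lost in KO2 without KO2 replicate 2 (adjusted p = 0.0795) and with DESeq2 (0.0725), and in KO5 without KO5 replicate 1 (0.0898). CTSC rose in KO5, with 196 and 198 CPM against 155 and 150 CPM in WT (0.37 ± 0.03, adjusted p = 4.88e-14), and stood at 0.04 ± 0.03 in KO2.

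GAA fell in KO5 and did not pass in KO2. It had 38.9 and 40.5 CPM in KO5 and 61.7 and 57.3 CPM in KO2, against 57.3 and 62.7 CPM in WT (-0.60 ± 0.05, adjusted p = 9.24e-15, in KO5, and -0.37 with GC offsets, adjusted p = 5.83e-09). MAN2B1 fell in KO2 (-0.33 ± 0.04) and in KO5 (-0.14 ± 0.05), where GC offsets ended the call. GUSB, GLA and ASAH1 fell in KO2 by 0.20, 0.17 and 0.20 on the log2 scale, and CTSB fell by 0.13, and none of these passed in KO5. HEXA and LIPA rose in KO5 (0.09 ± 0.04 and 0.16 ± 0.04), and GC offsets kept HEXA.

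NPC2 moved in opposite directions in the derivatives. It had 950 and 978 CPM in KO2 and 74.9 and 75.5 CPM in KO5, against 531 and 500 CPM in WT. The log2 fold change was 0.90 ± 0.03 in KO2 (adjusted p = 2.11e-29) and -2.78 ± 0.04 in KO5 (adjusted p = 1.57e-46), and in either derivative NPC2 was the sole gene of the 43 past a test for changes beyond 1.5-fold. The summed level of the 26 listed genes turned on it. With NPC2 the sum was 3396 and 3422 CPM in KO2 and 2802 and 2762 CPM in KO5, against 3182 and 3143 CPM in WT. Without NPC2 it was 2446 and 2444 CPM in KO2 and 2727 and 2687 CPM in KO5, against 2650 and 2643 CPM in WT, so that KO2 was the lower one. In alpha and beta the sum without NPC2 was 2991 and 3007 CPM and 3163 and 3179 CPM, against 2571 and 2559 CPM in GFP.

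PSAP also had opposite calls, with 359 and 357 CPM in KO2 and 498 and 490 CPM in KO5, against 428 and 425 CPM in WT (-0.25 ± 0.03 in KO2 and 0.21 ± 0.03 in KO5, adjusted p = 7.95e-10 and 2.34e-08). So had ATP6V0A2, with 10.2 and 10.2 CPM in KO2 and 14.8 and 15.0 CPM in KO5, against 12.4 and 13.6 CPM in WT (-0.36 ± 0.08 and 0.19 ± 0.08). Its rise in KO5 was lost with GC offsets, with DESeq2 (adjusted p = 0.111) and without WT replicate 1 (0.195), KO5 replicate 1 (0.083) or KO5 replicate 2 (0.123). CTSZ rose in KO2 (0.10 ± 0.04) and fell in KO5 (-0.16 ± 0.04). The rise was lost without WT replicate 1 (0.339), without KO2 replicate 2 (0.330) and with DESeq2 (0.121), and the fall with GC offsets and without WT replicate 2 (0.0826) or KO5 replicate 2 (0.0738).

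GRN fell by small amounts, with 143 and 143 CPM in KO2 and 140 and 133 CPM in KO5, against 159 and 160 CPM in WT (-0.16 ± 0.03 and -0.22 ± 0.04). The fall in KO5 was lost with GC offsets (-0.02, adjusted p = 0.598). SQSTM1 did not pass in KO2 (0.00 ± 0.03) or KO5 (0.05 ± 0.03), though with GC offsets it rose in KO5 by 0.17 (adjusted p = 1.98e-06). TFEB had 4.68 and 3.72 CPM in KO2 and 3.30 and 3.10 CPM in KO5, against 3.67 and 3.56 CPM in WT, and did not pass. Of the pump genes, ATP6V0A1 fell in KO2 (-0.18 ± 0.04) and KO5 (-0.10 ± 0.04, kept with GC offsets), and ATP6V0C in KO2 (-0.10 ± 0.04) and KO5 (-0.15 ± 0.04), both lost with GC offsets. Of 11 V1 genes, counting the antisense ATP6V1B1-AS1, 6 rose in KO5, by 0.11 to 0.25 on the log2 scale, and 0 fell. Of all genes 25.2% rose. With GC offsets ATP6V1D (0.17) and ATP6V1H (0.08) rose and ATP6V1E1 fell (-0.09, adjusted p = 0.0283), where 20.4% of all genes rose. In KO2 ATP6V1F (0.13 ± 0.03) and ATP6V1G1 (0.10 ± 0.03) rose. Both calls were lost without WT replicate 2 (adjusted p = 0.0515 and 0.139) and without KO2 replicate 2 (0.102 and 0.390), and that of ATP6V1G1 narrowly with DESeq2 (0.0501).

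**Figure D4:**
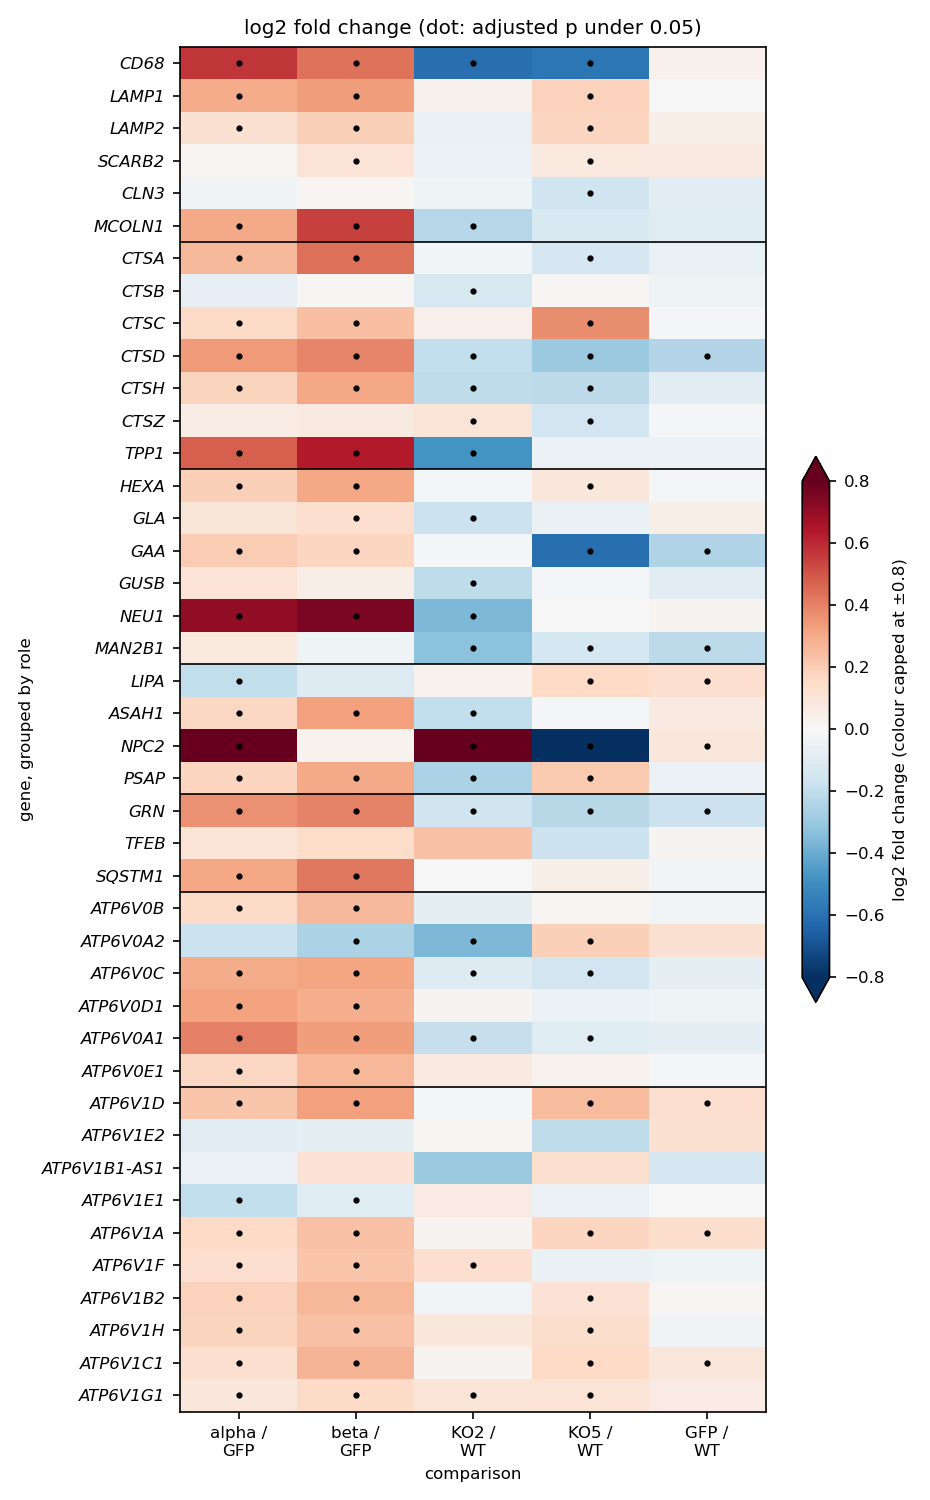
Log2 fold changes (colour, capped at ±0.8) of the 42 genes over 1 CPM in every library (rows, grouped by role) in 5 comparisons (columns); a dot marks an adjusted p under 0.05. The alpha and beta columns are mostly red, the KO2 column is blue for much of the listed lysosomal genes, the KO5 column is mixed and GFP against WT is pale.

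The derivatives were also set against each other. In KO5 against KO2 21 of the 43 genes were higher in KO5, 8 were lower and 14 did not pass, where 26.9% of all genes were higher and 28.1% lower (54.9% in all). With GC offsets 21 of these 29 calls were kept in direction, 8 were not (that of CTSD turned) and 7 were gained. That made 22 higher and 7 lower (51.2% and 16.3%, against 24.7% and 25.3% of all genes). NPC2 (-3.68 ± 0.04, adjusted p = 6.54e-52) and GAA (-0.59 ± 0.05, or -0.39 with GC offsets) were lower in KO5. ATP6V0A2 (0.55 ± 0.08), PSAP (0.46 ± 0.03), TPP1 (0.43 ± 0.04) and NEU1 (0.35 ± 0.05) were higher in KO5, whereas CD68 did not pass, with a 95% interval of -0.14 to 0.18. TFEB was lower in KO5 (-0.40 ± 0.14, adjusted p = 0.0148), a call lost with GC offsets (-0.23, adjusted p = 0.171), with DESeq2 (0.102) and without KO2 replicate 1 (0.339) or KO5 replicate 2 (0.101).

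GFP was also set against WT. There 5 of the 43 rose, 4 fell and 34 did not pass, where 8.81% of all genes rose and 10.2% fell (19.0% in all), shares near those of these genes. CTSD (-0.24 ± 0.04), GAA (-0.24 ± 0.05), MAN2B1 (-0.21 ± 0.05) and GRN (-0.17 ± 0.04) fell, and LIPA, ATP6V1A, ATP6V1D, NPC2 and ATP6V1C1 rose by 0.09 to 0.14. With GC offsets 0 of the 9 calls were kept, where 0.560% of all genes rose and 0.482% fell, and without WT replicate 2 the calls of CTSD, MAN2B1 and GRN were left, 3 of the 9. Without GFP replicate 2 the calls of ATP6V1D (adjusted p = 0.19), LIPA (0.184) and NPC2 (0.225) were lost, and without GFP replicate 1 that of ATP6V1C1 (0.157). CTSD had 211 and 218 CPM in alpha and 219 and 226 CPM in beta, against 175 and 165 CPM in GFP, while WT had 193 and 206 CPM. GRN had 159 and 160 CPM in WT and GAA 57.3 and 62.7 CPM. In these CPM, which carry no GC offsets, part of the rise of CTSD and GRN against GFP lay below the level of WT. GAA in alpha (58.3 and 59.0 CPM) and beta (57.9 and 56.9 CPM) lay within or below the range of WT. With GC offsets GFP against WT stood at -0.08 for CTSD, -0.03 for GRN and -0.08 for GAA, and none passed. The rises of CTSD and GRN against GFP were kept with GC offsets, at 0.23 and 0.27 in alpha and 0.27 and 0.30 in beta. Those of GAA were lost.

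The authors deposited comparisons of overexpression with knockout. In the same direction here, with alpha and beta averaged and KO2 and KO5 averaged, 32 of the 43 genes were higher with overexpression, 2 were lower and 9 did not pass, where 31.0% of all genes were higher and 27.7% lower (58.8% in all). CD68 was higher by 1.13 ± 0.05 on the log2 scale (adjusted p = 3.49e-23), NEU1 by 0.93 ± 0.03, TPP1 by 0.77 ± 0.03 and NPC2 by 1.59 ± 0.03. For NPC2 the average covers knockouts that moved in opposite directions, and its libraries overlap between the arms. The errors of these averages come from the spread within groups, so differences between the forms or between the derivatives do not enter them. The authors' deposited tables take each form alone and thus hold a different contrast. Their values also come from the authors' own fit, so their sizes are not like for like with those here. The authors' deposited table for alpha lists CD68 at 1.11 (adjusted p = 7.57e-23), NEU1 at 0.80 (4.22e-09) and NPC2 at 0.11 (0.6). The authors' deposited table for beta lists CD68 at 0.98 (2.6e-17), NEU1 at 0.84 (6.83e-10) and NPC2 at 0.01 (0.971). Mean NPC2 levels here were 1172 CPM in alpha and 558 CPM in beta, against 964 CPM in KO2 and 75.2 CPM in KO5. Why the authors' values for NPC2 lie near 0 was not tested. Of the 42 genes with an adjusted p in the authors' deposited tables, 14 were higher and 1 lower for alpha, and 22 higher and 0 lower for beta, at 0.05. Over all genes with an adjusted p in the authors' deposited tables, 9.02% of 12461 were higher and 7.42% lower for alpha, and 10.6% of 12447 were higher and 8.89% lower for beta.

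Other genes of the pathway were counted over 7 lists, and the genes named are those with the largest changes. In alpha 16 of 33 tested further lysosomal hydrolase and cofactor genes rose and 3 fell against GFP, and in beta 18 rose and 4 fell. Of all genes 21.2% rose and 16.3% fell in alpha, and 22.9% rose and 18.0% fell in beta. SMPD1, acid sphingomyelinase, had 16.8 and 15.8 CPM in alpha and 16.5 and 17.1 CPM in beta, against 9.93 and 10.7 CPM in GFP (0.66 ± 0.09 and 0.71 ± 0.09). The sulfatase gene GALNS rose by 0.51 ± 0.09 and 0.67 ± 0.08, the phospholipase gene PLA2G15 by 0.45 ± 0.06 in alpha and the sulfatase gene SGSH by 0.53 ± 0.07 in beta. Of 24 other membrane protein genes 13 rose and 2 fell in alpha, and 14 rose and 4 fell in beta. Among them the chloride transporter gene CLCN7 rose by 0.42 ± 0.04 and 0.54 ± 0.04, CLN8 by 0.46 ± 0.10 and 0.52 ± 0.10, the acetyltransferase gene HGSNAT by 0.44 ± 0.06 in alpha and the cystine exporter gene CTNS by 0.56 ± 0.06 in beta. CTNS was lower in alpha than in beta (-0.29 ± 0.06).

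Accessory and assembly genes of the pump gave 5 rises and 0 falls of 15 in alpha and 6 and 0 in beta. Over all genes 21.2% rose and 16.3% fell in alpha, and 22.9% and 18.0% did in beta. OXR1, whose product binds the pump, had 273 and 271 CPM in alpha and 281 and 280 CPM in beta, against 116 and 118 CPM in GFP, a log2 fold change of 1.22 ± 0.04 and 1.26 ± 0.04. TLDC1, a gene of the same domain family, rose by 0.39 ± 0.07 and 0.42 ± 0.07, and ROGDI, a gene of the complex that rejoins the sectors, by 0.34 ± 0.09 and 0.55 ± 0.09. TCIRG1 did not pass, with 38.5 and 41.0 CPM in alpha and 40.4 and 40.7 CPM in beta, against 37.6 and 36.8 CPM in GFP. Of 14 sorting genes 5 rose and 2 fell in alpha, and 4 rose and 1 fell in beta. The adaptor gene AP1S2 rose by 0.79 ± 0.05 and 0.93 ± 0.04, the mannose 6-phosphate receptor gene IGF2R by 0.39 ± 0.04 and 0.44 ± 0.04, and GNPTG, of the enzyme that makes the mannose 6-phosphate tag, by 0.57 ± 0.10 in beta. AP1S1, another adaptor gene, fell in alpha (-0.35 ± 0.04).

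Of 21 genes of nutrient signalling and TFE regulation 7 rose and 3 fell in alpha, and 9 rose and 2 fell in beta. The shares of all genes that rose and fell were 21.2% and 16.3% in alpha and 22.9% and 18.0% in beta. TFE3 had 53.7 and 52.2 CPM in alpha and 52.6 and 51.4 CPM in beta, against 39.9 and 40.4 CPM in GFP (0.40 ± 0.05 and 0.37 ± 0.05). MITF had 25.3 and 24.9 CPM in alpha and 17.2 and 16.0 CPM in beta, against 13.4 and 16.2 CPM in GFP, and rose in alpha (0.76 ± 0.08, adjusted p = 3.1e-11) and was higher in alpha than in beta (0.60 ± 0.08). FNIP2 rose by 0.50 ± 0.06 in alpha and its partners FLCN and FNIP1 by 0.43 ± 0.07 and 0.37 ± 0.04 in beta. Autophagy genes gave 17 rises and 1 fall of 35 in alpha and 19 and 1 in beta. ATG12, which is conjugated during autophagosome growth, rose by 0.86 ± 0.05 and 0.66 ± 0.05, the lipid transfer gene ATG2A by 0.69 ± 0.07 and 0.62 ± 0.07, the receptor gene OPTN by 0.48 ± 0.05 in alpha and the kinase gene ULK1 by 0.51 ± 0.06 in beta. Of 10 targets of NRF2, a regulator that SQSTM1 activates and that also drives SQSTM1, 4 rose and 2 fell in alpha, and 3 rose and 2 fell in beta. TXNRD1 rose by 0.67 ± 0.03 and 0.68 ± 0.03 and HMOX1 by 0.43 ± 0.06 in alpha, while SLC7A11 fell (-0.97 ± 0.07 and -1.09 ± 0.08), as did OSGIN1 in beta (-0.70 ± 0.16).

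In KO2 falls led among the further hydrolase genes (12 of 33, with 1 rise) and membrane protein genes (12 of 24, with 0 rises). Of all genes 14.9% fell there and 15.1% rose. The aspartylglucosaminidase gene AGA had 3.52 and 3.37 CPM in KO2 and 6.44 and 5.24 CPM in KO5, against 6.82 and 6.42 CPM in WT (-0.93 ± 0.12 in KO2). ARSA, arylsulfatase A, had 7.23 and 7.43 CPM in KO2 and 6.10 and 5.59 CPM in KO5, against 10.3 and 10.4 CPM in WT (-0.49 ± 0.09 and -0.82 ± 0.10, and -0.55 in KO5 with GC offsets). NAGLU (-0.38 ± 0.08), the potassium and proton channel gene TMEM175 (-0.47 ± 0.09), MCOLN3 (-0.42 ± 0.05) and the sialic acid transporter gene SLC17A5 (-0.32 ± 0.06) fell in KO2. TCIRG1 fell there too (-0.39 ± 0.05), as did ATP6AP1 (-0.21 ± 0.04), FLCN (-0.30 ± 0.06) and TFE3 (-0.27 ± 0.05), and RRAGA, a Rag GTPase gene, rose by 0.41 ± 0.04. In KO2 accessory genes gave 1 rise and 3 falls of 15, sorting genes 2 and 2 of 14, nutrient signalling genes 3 and 3 of 21, autophagy genes 5 and 8 of 35 and NRF2 targets 1 and 3 of 10.

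In KO5 the same lists were mixed, with 7 rises and 9 falls of 33 hydrolase genes, 7 and 9 of 24 membrane protein genes, 4 and 3 of 15 accessory genes, 5 and 2 of 14 sorting genes, 1 and 8 of 21 nutrient signalling genes, 8 and 6 of 35 autophagy genes and 5 and 1 of 10 NRF2 targets, where 25.2% of all genes rose and 25.9% fell. With GC offsets the counts were 9 and 5, 8 and 7, 4 and 2, 2 and 1, 3 and 4, 6 and 9, and 7 and 1 in the same order. DNASE2 fell (-0.41 ± 0.06), as did ROGDI (-0.62 ± 0.09) and ULK1 (-0.62 ± 0.06). LAMP3 (0.65 ± 0.08), MCOLN2 (0.59 ± 0.06), OXR1 (0.55 ± 0.04) and the autophagy receptor gene TAX1BP1 (0.55 ± 0.03) rose. All of these passed with GC offsets too, at -0.33, -0.36, -0.38, 0.60, 0.49, 0.41 and 0.42.

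**Figure D5:**
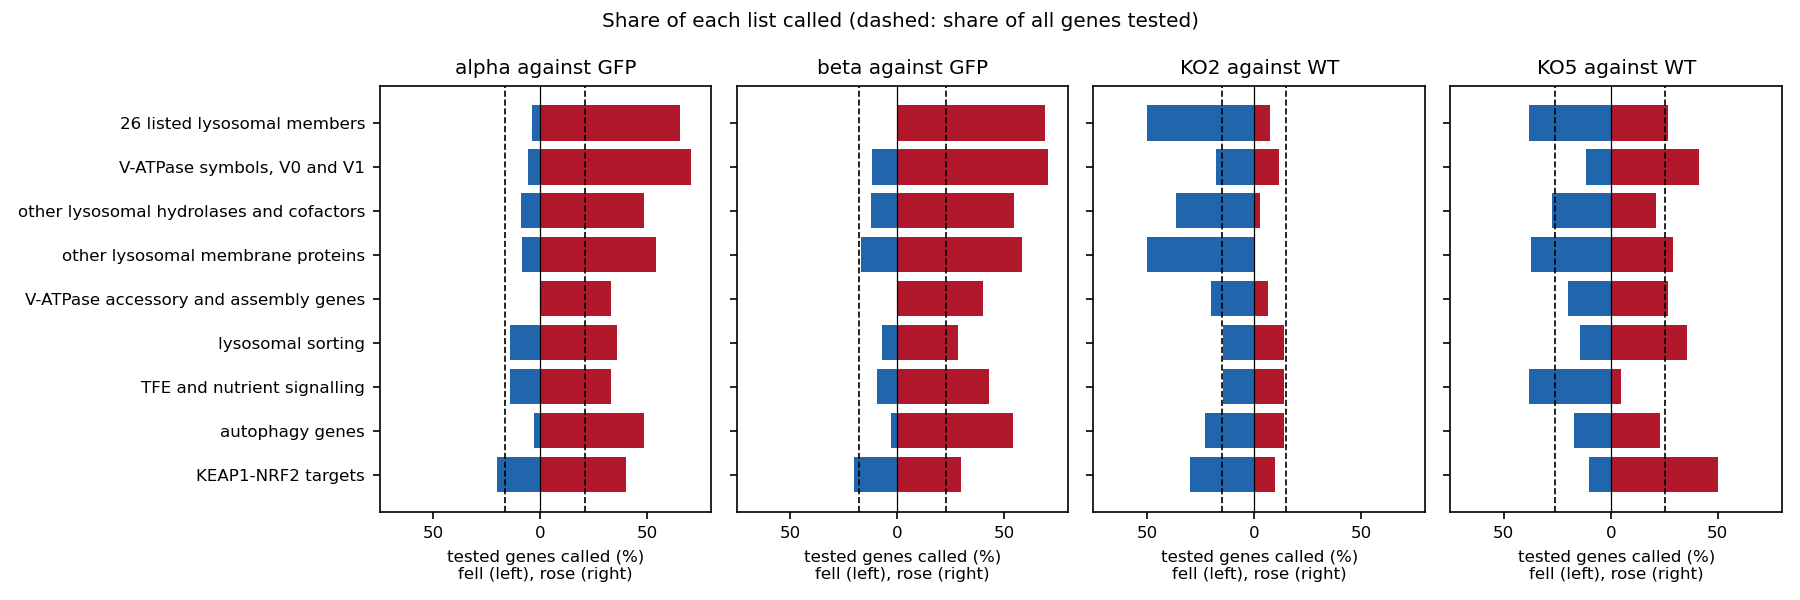
Share of the tested genes of each list (rows, %) that rose (red, right of 0) or fell (blue, left of 0) in alpha and beta against GFP and KO2 and KO5 against WT; dashed lines mark the share of all 12858 genes tested. In alpha and beta every list has a share of rises above the dashed line, and in KO2 falls stand out for the listed, hydrolase and membrane protein lists.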

How the data were processed

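Polyadenylated RNA of RKO derivatives was sequenced in 12 libraries from a stranded kit, per the labels' protocols. TopHat, Bowtie2, Cufflinks and build hg19 are named in the submitters' processing notes; versions, the read counter and its use of strand are not given in the sources used here. The authors deposited raw counts per gene symbol, with 26366 entries per library. The 2 that name no gene were left out (no feature, 9.13% to 10.8%, and ambiguous, 1.66% to 1.75%). The deposited tables of overexpression against knockout hold the authors' log2 fold changes and p-values, used only where named. The combined table was not used.

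Of 26364 genes, 12858 passed filterByExpr. All 12 libraries entered 1 edgeR 4.0.16 quasi-likelihood fit (R 4.3.3, limma 3.58.1, TMM), with Benjamini-Hochberg adjustment over all genes and a threshold of 0.05. The scripts were tested on simulated data. Standard errors are of the Wald type, taken from each gene's fit. Lengths and GC content came from GENCODE 29, with GC known for 94.3% of tested genes, and promoters from RefSeq. Alternatives were DESeq2 1.42.0, its size factors, no low-count filter, the compared groups only, GC offsets, a replicate block, a test beyond 1.5-fold and leaving out each library. In each comparison the 8 largest rises and 8 largest falls of at least 5 CPM, with CD68 and TFEB, were the genes recomputed singly. Other tested genes are named in the text too. From each other list up to 3 genes were chosen by the size of their change, and a few more are named. The genes and lists were chosen with earlier results of these data known. Depth of 19058967 to 55961821 counts sets counting error only.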

Additional observations from a re-analysis of the deposited data

Results flagged for a closer look

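These results differ between the forms or between the derivatives by a test of the difference itself (edgeR quasi-likelihood F-test, adjusted p under 0.05 over all genes), given as log2 differences. Between alpha and beta they were NPC2 (1.07), MCOLN1 (-0.24), CTSA (-0.18), TPP1 (-0.15), ATP6V1C1 (-0.14), PSAP (-0.13) and SQSTM1 (-0.11), where 6.24% of all genes passed. Each value is alpha minus beta, and PRDM1 counts differed between the forms as well.

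Between KO5 and KO2, where 54.9% of all genes passed, the genes higher in KO5 that were named were ATP6V0A2 (0.55), PSAP (0.46), TPP1 (0.43), ATP6V1B1-AS1 (0.42), NEU1 (0.35), CTSC (0.33), ATP6V1D (0.27) and LAMP2 (0.23). Lower in KO5 were NPC2 (-3.68), GAA (-0.59), TFEB (-0.40), CTSZ (-0.26), ATP6V1F (-0.19), CTSA (-0.11), ATP6V1E1 (-0.11) and CTSD (-0.10). With GC offsets the differences of TFEB (-0.23, edgeR adjusted p = 0.171) and CTSA (-0.01, adjusted p = 0.774) did not pass, and those of GAA (-0.39), CTSZ (-0.15), ATP6V1F (-0.12) and LAMP2 (0.11) were smaller and passed. The TFEB call was also lost with DESeq2 (0.102) and without KO2 replicate 1 (0.339) or KO5 replicate 2 (0.101). The difference of CTSD turned to 0.085 with GC offsets, and its call was lost without KO2 replicate 1 (edgeR adjusted p = 0.175), without KO5 replicate 2 (0.238) and with DESeq2 (0.0569). The calls of ATP6V1B1-AS1 (0.0883), CTSA (0.0535) and ATP6V1E1 (0.0541) were lost without KO5 replicate 1, and that of ATP6V1E1 without KO2 replicate 1 (0.0559). ATP6V1B1-AS1 is antisense to a gene with 0 counts, and whether strand was used in counting is not given in the sources used here.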

How the results depend on the processing

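Counts of called lysosome and V-ATPase genes are given for alpha and beta against GFP, alpha against beta, KO2 and KO5 against WT, KO5 against KO2, GFP against WT and overexpression against knockout, in that order. They were 31, 32, 7, 20, 26, 29, 9 and 34. Beyond 1.5-fold, where the share of all genes is not given, they were 2, 1, 1, 1, 1, 1, 0 and 4. With 1 library left out they ranged over 26 to 29, 27 to 32, 4 to 5, 15 to 19, 18 to 22, 23 to 29, 3 to 9 and 32 to 35. GC offsets left 15 for KO5 and 0 for GFP against WT, with or without the replicate block. The replicate block alone changed 0 of 100 single-gene results and kept the counts at 31, 32, 7, 20, 26, 29, 9 and 34. Replicate numbers were not taken as pairs. The 15 correlations of replicate differences between groups ran from -0.124 to 0.118. They cannot show whether libraries of the same number were prepared together.

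In the main fit 28 of the 43 tested lysosome and V-ATPase genes rose with both forms, where 16.9% of all 12858 genes tested did. Both comparisons use the same GFP libraries, so their calls are not independent. The count of 28 became 26 with DESeq2 size factors, 27 without the low-count filter, 25 with the compared groups only and 25 with the DESeq2 Wald test. The share of all genes under these settings is not given here. Apart from GC offsets, smaller changes were covered by counts alone, such as the rises in alpha of CTSH (edgeR adjusted p = 0.0409), ATP6V1G1 (0.0344) and ASAH1 (0.0287). Single genes were recomputed for 100 results, those with the largest changes in each comparison with CD68 and TFEB. Of these, 0 changed side or sign with DESeq2 size factors, 0 without the low-count filter, 2 with the compared groups only, 13 with the DESeq2 Wald test, 20 with GC offsets, 20 with the block and GC offsets and 79 beyond 1.5-fold, and 59 of 444 did with a library left out. Signs turned for TFEB in alpha (-0.0023 to 0.20 with a library left out, the lowest without alpha replicate 1), between the forms (-0.15 to 0.056, above 0 without alpha replicate 2 and, at 0.040, without beta replicate 1), in KO5 against WT (0.034 with GC offsets, 0.016 with the block too) and in GFP against WT (-0.012 to 0.052, below 0 without GFP replicate 1 and, at -0.0023, without WT replicate 2). CD68 turned in KO5 against KO2 (-0.064 to 0.13, below 0 without KO2 replicate 2 and, at -0.029, without KO5 replicate 1) and in GFP against WT (-0.020 to 0.093, below 0 without GFP replicate 1 and, at -0.0044, without WT replicate 2). ATP6V1C1 in GFP against WT became -6.2e-05 with GC offsets and -0.00037 with the block too. None of these passed before or after, except ATP6V1C1, which passed before. CTSD in KO5 against KO2, which passed at -0.10, passed at 0.085 with GC offsets and 0.085 with the block too. The causes were not tested.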

Other observations

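NPC2 lies beside genes that were also measured, and its 6 nearest tested neighbours, 3 on each side, were looked at after its values were seen. ISCA2, which helps build iron-sulfur proteins, had 54.9 and 56.2 CPM in alpha and 40.0 and 42.0 CPM in beta, against 36.8 and 39.5 CPM in GFP. It had 47.7 and 49.3 CPM in KO2 and 20.5 and 18.5 CPM in KO5, against 35.2 and 36.1 CPM in WT. Its log2 fold changes were 0.54 in alpha (edgeR adjusted p = 7.18e-12), 0.11 in beta (0.13), 0.44 in KO2 (1.39e-10) and -0.87 in KO5 (1.29e-17), each with the sign of NPC2. In KO5 ALDH6A1 (-0.78, adjusted p = 3.65e-10), ABCD4 (-0.41, adjusted p = 1.36e-08) and the scarce LTBP2 (-0.89, adjusted p = 0.0209, at 0.27 to 1.56 CPM) fell too, whereas LIN52 stood at 0.04 and AREL1 at -0.06. In beta, where NPC2 did not pass, ALDH6A1 (-0.26, adjusted p = 0.0213), ABCD4 (-0.16, adjusted p = 0.0317) and LTBP2 (-1.26, adjusted p = 0.00444) fell. In alpha AREL1 rose (0.18, adjusted p = 1.97e-04) and ALDH6A1, ABCD4, LIN52 and LTBP2 did not pass, and in KO2 none of these 5 passed.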
